A study of Mus musculus with 4 samples.

Results

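The set comprised 10 genes that mark mesothelium and simple epithelium, Krt7, Krt8, Krt18, Krt19, Upk3b, Upk1b, Msln, Wt1, Lrrn4 and Muc16, of 54532 gene IDs counted by RNA-seq in mouse embryonic fibroblasts (MEFs), primary cultures of embryonic connective tissue cells. Each symbol was matched to 1 Ensembl ID of the raw count table. The genes were followed over 4 genotypes with 1 library each: Trp53-/-; Zfp871-/- (double null), Trp53-/-, Zfp871-/- and wild type (WT). All cells were C57BL/6 MEFs at passage 4, still growing, whose donor embryos were 12.5 to 13.5 days post-coitum. The labels give no embryo numbers, so whether a library is 1 embryo or a pool is not given in the sources used here. Trp53-/- and double-null cells came from a cross of double heterozygotes and Zfp871-/- cells from a cross of Zfp871 heterozygotes, and WT cells could come from either cross. Differences of litter or culture therefore cannot be told apart from those of genotype.

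Mesothelium is the single layer of epithelium-like cells that covers the body cavities and the organs within them. It arises from mesoderm, as fibroblasts do, yet it carries the keratins of simple epithelia. Keratin filaments form from equal parts of a type I and a type II protein, so Krt8 (type II) with Krt18 (type I) is the basic pair of simple epithelia, joined in many of them by Krt7 (type II) and Krt19 (type I). Mesothelial cells also make mesothelin (Msln), a surface protein whose known partner is the large mucin Muc16, and the transcription factor Wt1, which acts in the coelomic lining, kidney and gonad. Fibroblasts are marked instead by vimentin and by genes of the collagenous matrix.

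The RefSeq promoter table (GRCm38.p6, the patch release of the mm10 assembly) held 6 of the 10 genes, Krt7, Krt8, Krt18, Upk3b, Lrrn4 and Muc16. Windows of 250 bases before the RefSeq start were searched, and the part of each that precedes the untranslated region given by GENCODE is shown for 4 genes whose RNA followed a shared course over the libraries (Krt8, Krt18, Upk3b and Lrrn4) and for Krt7, which did not follow it. Capitals mark matches, on either strand, to 6 motifs: the E-box CACCTG, the AP-1 site TGANTCA, the GC box GGGCGG, the TEAD site GGAATG, the TATA box TATAAA and CCAAT. No match overlapped that of another motif. The window of Krt8 has its E-box in the 140 bases that GENCODE places in the untranslated region, which are not shown, and the window of Krt7 lies within the GENCODE gene, downstream of its outermost start.
Krt8, chr15:102004483-102004592, minus strand: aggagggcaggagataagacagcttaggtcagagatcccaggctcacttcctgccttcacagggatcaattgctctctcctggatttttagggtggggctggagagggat
Krt18, chr15:102027966-102028179, plus strand: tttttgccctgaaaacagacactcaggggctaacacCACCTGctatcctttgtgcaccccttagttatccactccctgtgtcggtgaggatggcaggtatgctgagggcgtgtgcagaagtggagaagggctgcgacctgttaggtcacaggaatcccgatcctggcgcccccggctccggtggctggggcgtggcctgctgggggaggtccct
Upk3b, chr5:136038246-136038495, plus strand: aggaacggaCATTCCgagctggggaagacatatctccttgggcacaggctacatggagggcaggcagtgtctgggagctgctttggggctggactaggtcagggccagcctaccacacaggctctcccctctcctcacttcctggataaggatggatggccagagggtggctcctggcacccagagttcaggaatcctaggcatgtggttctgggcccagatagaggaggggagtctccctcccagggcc
Lrrn4, chr2:132880892-132881112, minus strand: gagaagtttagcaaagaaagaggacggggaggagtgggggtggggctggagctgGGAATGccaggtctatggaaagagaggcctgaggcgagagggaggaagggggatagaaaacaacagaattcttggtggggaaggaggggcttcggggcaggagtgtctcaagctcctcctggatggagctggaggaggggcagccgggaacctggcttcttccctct
Krt7, chr15:101412153-101412401, plus strand: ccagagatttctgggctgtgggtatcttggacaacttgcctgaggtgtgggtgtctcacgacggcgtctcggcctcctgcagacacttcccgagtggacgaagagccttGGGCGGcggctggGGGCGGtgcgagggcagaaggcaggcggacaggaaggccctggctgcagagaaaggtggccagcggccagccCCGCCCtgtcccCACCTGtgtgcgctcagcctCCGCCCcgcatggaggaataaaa

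The E-box, the sequence known to bind the Snail and ZEB repressors of epithelial genes, was present in the windows of Krt7, Krt8 and Krt18, that is, 3 of the 6 members in the table and 17.2% of 32851 windows of the same length. The TEAD site was found in those of Upk3b and Lrrn4, against 12.6% of all windows. The GC box occurred in Krt7 alone among the 6, with 4 matches, against 32.7% of all windows. No window of the 6 held the AP-1 site, the TATA box or CCAAT, which were in 6.75%, 12.4% and 33.8% of all windows. The 4 genes with a shared course thus had no single motif of the 6 in common. Their windows were 58.0% to 60.8% G and C, against a median of 52.4% over all windows. A match of letters is a description and does not show binding.

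The libraries held 22324599 counts in the double null, 21004078 in Trp53-/-, 19974054 in Zfp871-/- and 19303167 in WT. Each targeted gene had fewer counts where its null label stood: Zfp871 had 307 and 327 counts in the double null and Zfp871-/-, against 784 in Trp53-/- and 660 in WT, and Trp53 had 1382 and 1233 counts in the double null and Trp53-/-, against 2413 in Zfp871-/- and 2383 in WT. All 13 fibroblast markers examined, among them Vim, Col1a1 and Pdgfra, passed the filter on low counts, with a summed level of 33850 to 46620 CPM (counts relative to the TMM-scaled library total) per library. Summed markers of 2 other cell types differed strongly between libraries: the 15 macrophage genes stood at 936.6 CPM in the double null, 1053 in Trp53-/-, 81.4 in Zfp871-/- and 72.9 in WT, and the 9 cartilage genes at 14.1, 8.92, 46.3 and 773.6 CPM in the same libraries. The 7 smooth muscle genes summed to 3564, 3041, 3563 and 2919 CPM in these libraries. All 15 macrophage genes rose with Trp53 loss in the additive edgeR test described further on, which called 5.01% of all genes upward. The part of either cell type in the results that follow was not tested. In bulk RNA, fewer cells of a type and less RNA per cell cannot be told apart.

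The set was scarce in all libraries, with 466 counts in the double null, 611 in Trp53-/-, 856 in Zfp871-/- and 294 in WT over the 10 genes together. Of the 10, 8 passed the filter of at least 1 CPM in at least 2 libraries, and Krt7 and Muc16 did not. Counts over the set below include all 10 genes, since a gene could pass the filter through the libraries in which it was high. With 1 library per genotype no difference between a pair of libraries has a replicate check. Log2 ratios are of TMM-scaled CPM with a prior count of 2, and the brackets beside them are 95% intervals from the exact (Clopper-Pearson) binomial share of each pair of counts, which cover counting error only.

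The keratin pair Krt8 and Krt18 was low in WT, high in both single nulls and in between in the double null. Krt8 (chromosome 15, 101996698 to 102004482, GRCm38/mm10) had 9 counts in the double null, 25 in Trp53-/-, 40 in Zfp871-/- and 1 in WT. Each neighbour in that order of levels, Zfp871-/- above Trp53-/-, Trp53-/- above the double null and the double null above WT, differed beyond counting error. Krt18 (chromosome 15, 102028180 to 102032027) had 29 counts in the double null, 86 in Trp53-/-, 75 in Zfp871-/- and 9 in WT. Its single-null libraries did not differ beyond counting error from each other, while the double null lay below both and above WT. These partner genes lie 23.7 kb apart with no annotated gene between them. Their mean-centred log2 levels over the 4 libraries differed by a root mean square of 0.39.

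Krt8 and Krt18 went in opposite directions with Zfp871 loss in the 2 Trp53 backgrounds. For Krt8 the log2 ratio was -1.36 (-2.85 to -0.41) in the double null over Trp53-/- and 3.89 (2.76 to 10.66) in Zfp871-/- over WT, the second resting on 1 count in WT. For Krt18 the ratios were -1.58 (-2.32 to -1.03) without Trp53 and 2.83 (2.06 to 4.25) with it. Read by Trp53 loss, Krt18 had a log2 ratio of -1.60 (-2.34 to -1.04) in the double null over Zfp871-/- and of 2.81 (2.05 to 4.22) in Trp53-/- over WT. These readings use the same 4 libraries and are not separate evidence. Gm36026, a gene on the opposite strand, shares 101 exonic bases with Krt8 and had 0 counts in every library.

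Krt19 and Krt7 did not follow that pair. Krt19 (chromosome 11, 100140810 to 100148665), the most abundant gene of the set, had 287 counts in the double null, 194 in Trp53-/-, 270 in Zfp871-/- and 113 in WT. It was higher in each null library than in WT, and the double null and Zfp871-/- did not differ beyond counting error. Its log2 ratio of Zfp871 loss was 0.47 (0.21 to 0.75) without Trp53 and 1.25 (0.94 to 1.59) with it, so that Krt19 was the 1 member higher in the Zfp871-null library of both backgrounds. Krt7 (chromosome 15, 101411043 to 101430313) had 3 counts in the double null, 16 in Trp53-/-, 17 in Zfp871-/- and 27 in WT. Here WT was highest. Zfp871-/- differed beyond counting error neither from WT above it nor from Trp53-/- below it, while Trp53-/- over WT had a log2 ratio of -0.88 (-1.96 to -0.02). The double null was below Trp53-/- with a log2 ratio of -1.88 (-4.92 to -0.70). The overlapping antisense gene Gm671 had 0 counts throughout.

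**Figure D1:**
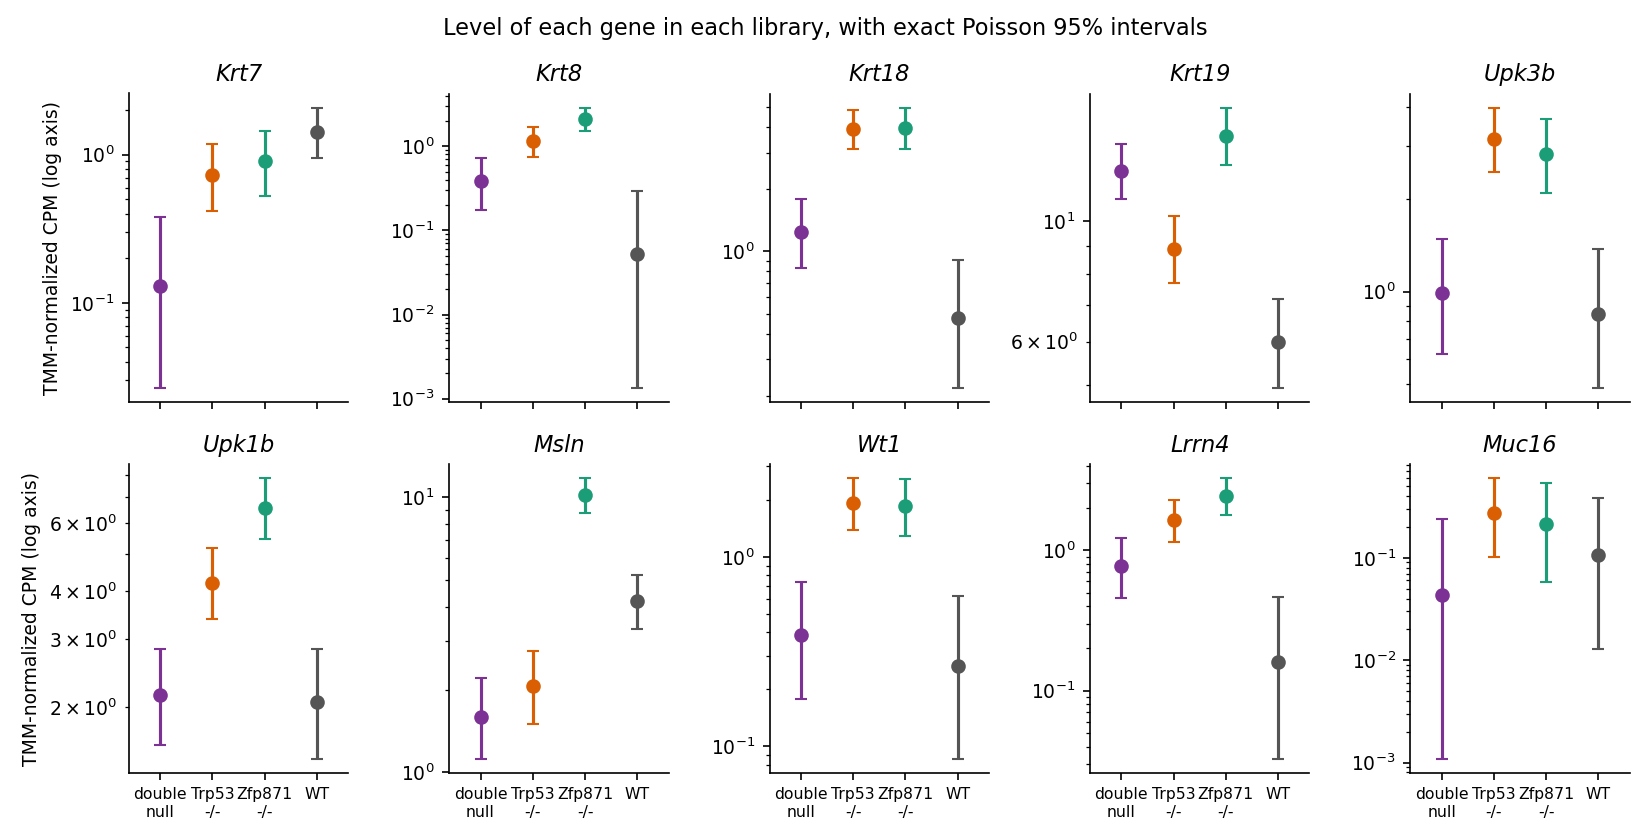
TMM-normalized CPM (log axis, a separate range in each panel) of the 10 genes in the double null, Trp53-/-, Zfp871-/- and WT libraries; points are single libraries and bars are exact Poisson 95% intervals of the count. Krt8, Krt18, Upk3b, Upk1b, Wt1 and Lrrn4 peak in the single nulls, whereas Krt7 is highest in WT and Msln in Zfp871-/-.

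Levels of different genes were compared per length, in the deposited FPKM values. Krt19 made up 86.0% of the summed keratin FPKM of the set in the double null, 58.3% in Trp53-/-, 66.0% in Zfp871-/- and 85.2% in WT. Krt18 stood at 0.868 FPKM in the double null, 2.73 in Trp53-/-, 2.77 in Zfp871-/- and 0.330 in WT. Krt8 stood at 0.198, 0.581, 1.08 and 0.0269 FPKM in the same libraries, below Krt18 in each. The type II genes Krt7 and Krt8 together reached 0.0287 of the summed FPKM of the type I genes Krt18 and Krt19 in the double null, 0.0915 in Trp53-/-, 0.116 in Zfp871-/- and 0.0646 in WT. Keratin RNA of the set was thus largely of type I in all 4 libraries, and the type II sums rest on 12 to 57 counts. The FPKM of Krt7 rests on an exon length of 7049 bases, against 1437 for Krt18, 1855 for Krt19 and 1958 for Krt8. A shorter Krt7 transcript would raise the type II share, most in WT, so the order of the libraries by that share depends on this length.

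**Figure D2:**
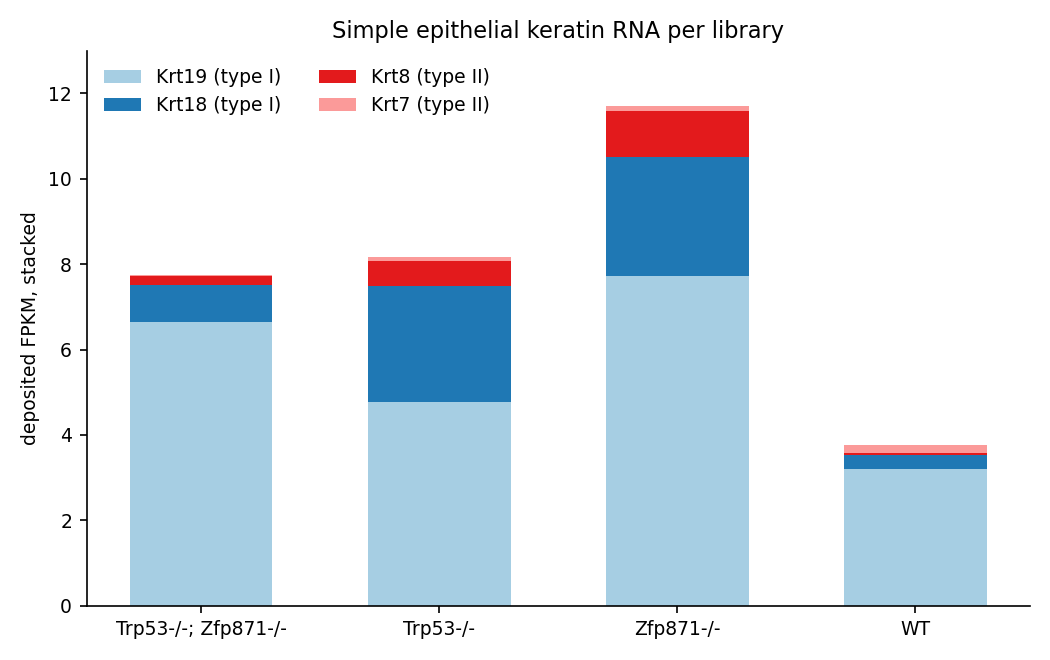
Stacked deposited FPKM (linear axis from 0) of Krt19, Krt18, Krt8 and Krt7 in each of the 4 libraries, without error bars because each bar is 1 library. The sum is 7.74 FPKM in the double null, 8.17 in Trp53-/-, 11.7 in Zfp871-/- and 3.77 in WT, and Krt19 is the largest share of each bar.

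The uroplakin genes Upk3b and Upk1b were also highest in the single nulls. Uroplakins are membrane proteins that plate the surface of urothelium, where Upk1b is a tetraspanin subunit, and Upk3b is also a widely used marker of mesothelium. Upk3b (chromosome 5, 136038496 to 136046487) had 23 counts in the double null, 69 in Trp53-/-, 53 in Zfp871-/- and 16 in WT. Upk1b (chromosome 16, 38773184 to 38800328) had 50 counts in the double null, 92 in Trp53-/-, 124 in Zfp871-/- and 39 in WT. For both genes the single nulls were high, and the double null did not differ beyond counting error from WT. The log2 ratio of Zfp871 loss was -1.58 (-2.42 to -0.97) without Trp53 and 1.62 (0.90 to 2.64) with it for Upk3b. For Upk1b these ratios were -0.94 (-1.495 to -0.46) and 1.63 (1.14 to 2.23). The urothelial genes Upk2 and Upk3a had 0 counts in every library, Upk1a had 11, 11, 7 and 3 counts in the double null, Trp53-/-, Zfp871-/- and WT, and Upk3bl had 2 counts in WT only.

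Wt1 and Lrrn4 were likewise highest in the single nulls, with fewer counts. Wt1 (chromosome 2, 105126529 to 105173616) had 9 counts in the double null, 42 in Trp53-/-, 35 in Zfp871-/- and 5 in WT. Its single nulls did not differ from each other beyond counting error, nor did the double null from WT. The log2 ratio of Zfp871 loss was -2.06 (-3.54 to -1.25) without Trp53 and 2.44 (1.45 to 4.52) with it. Lrrn4 (chromosome 2, 132868305 to 132880891), which encodes a leucine-rich repeat membrane protein used as a mesothelial marker in mouse, had 18 counts in the double null, 36 in Trp53-/-, 46 in Zfp871-/- and 3 in WT. Its ratios were -1.001 (-1.99 to -0.23) without Trp53 and 3.31 (2.30 to 6.27) with it, and the double null remained above WT, with a log2 ratio of 1.77 (0.51 to 4.69). Among genes of the other organs in which Wt1 acts, the podocyte gene Nphs1 had 0 counts in every library, and Six2, a gene of the nephron progenitors, had 44 counts in the double null, 28 in Trp53-/-, 110 in Zfp871-/- and 425 in WT. Osr1, a gene of early kidney mesoderm, had 856, 742, 663 and 1221 counts in these libraries, and Inhba, an inhibin and activin subunit, 13786, 13280, 26206 and 12477. Of the gonad genes, Star, which moves cholesterol into mitochondria for steroid synthesis, had 44 counts in the double null, 65 in Trp53-/-, 67 in Zfp871-/- and 35 in WT, the single nulls being higher as for Wt1. Amh and Nr5a1, singled out after their values were seen, had 9, 14, 11 and 3 counts and 0, 7, 2 and 0 counts in these libraries. Lhx9 and Sox9, also singled out afterwards, are on the same list, passed the filter and were more abundant. They had 751, 603, 440 and 463 counts and 774, 654, 771 and 798 counts in these libraries. By CPM Lhx9 was highest in the double null and Sox9 in WT, unlike Wt1. In the edgeR test 0 of the 6 kidney and gonad genes that passed the filter were called for either loss. Of all genes, that test called 5.01% upward and 4.31% downward for Trp53 loss and 0.0% for Zfp871 loss, so this count is near those shares.

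Msln was lowest in the Trp53-null libraries, and Muc16 had at most 6 counts in a library. Msln (chromosome 17, 25748613 to 25754378) had 37 counts in the double null, 45 in Trp53-/-, 192 in Zfp871-/- and 79 in WT. It was highest in Zfp871-/-, next in WT and lowest in both Trp53-null libraries, which did not differ beyond counting error from each other. As log2 ratios, Trp53 loss gave -2.61 (-3.23 to -2.16) in the double null over Zfp871-/- and -0.99 (-1.58 to -0.48) in Trp53-/- over WT. For Zfp871 loss the ratios were -0.35 (-1.04 to 0.29) without Trp53 and 1.26 (0.90 to 1.68) with it. Muc16 (chromosome 9, 18495455 to 18674530) had 1 count in the double null, 6 in Trp53-/-, 4 in Zfp871-/- and 2 in WT, and no neighbours in its order of levels differed beyond counting error, so a difference in Muc16 was not detectable at this depth.

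Over the whole set, most genes were lower with Zfp871 loss where Trp53 was absent and higher with it where Trp53 was present, in pairs that share no library. In the double null over Trp53-/-, 7 of the 10 genes were 2-fold or more lower, where the background was 1.01% of the 13306 genes that passed the filter, and 0 were 2-fold or more higher (background 0.819%). Lrrn4 at -1.001 lay just inside that threshold and Upk1b at -0.94 just outside it, and the interval of Muc16 included an equal level. In Zfp871-/- over WT, 8 of the 10 were 2-fold or more higher (background 3.52%) and 0 were 2-fold or more lower (background 3.97%). Since scarce genes vary more, the same shares were taken over the 8139 genes whose summed counts lay between 13 and 864, the range of the set. There 6.92% of genes were lower and 6.2% higher by that threshold in the double null over Trp53-/-, and 11.9% were higher in Zfp871-/- over WT. The median log2 ratio of the 10 genes was -1.38 without Trp53 and 1.62 with it, against 0.00 and 0.00 over the genes that passed the filter. The genes were chosen with earlier results of these data known, so the distance from these shares is a description and not a test.

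**Figure D3:**
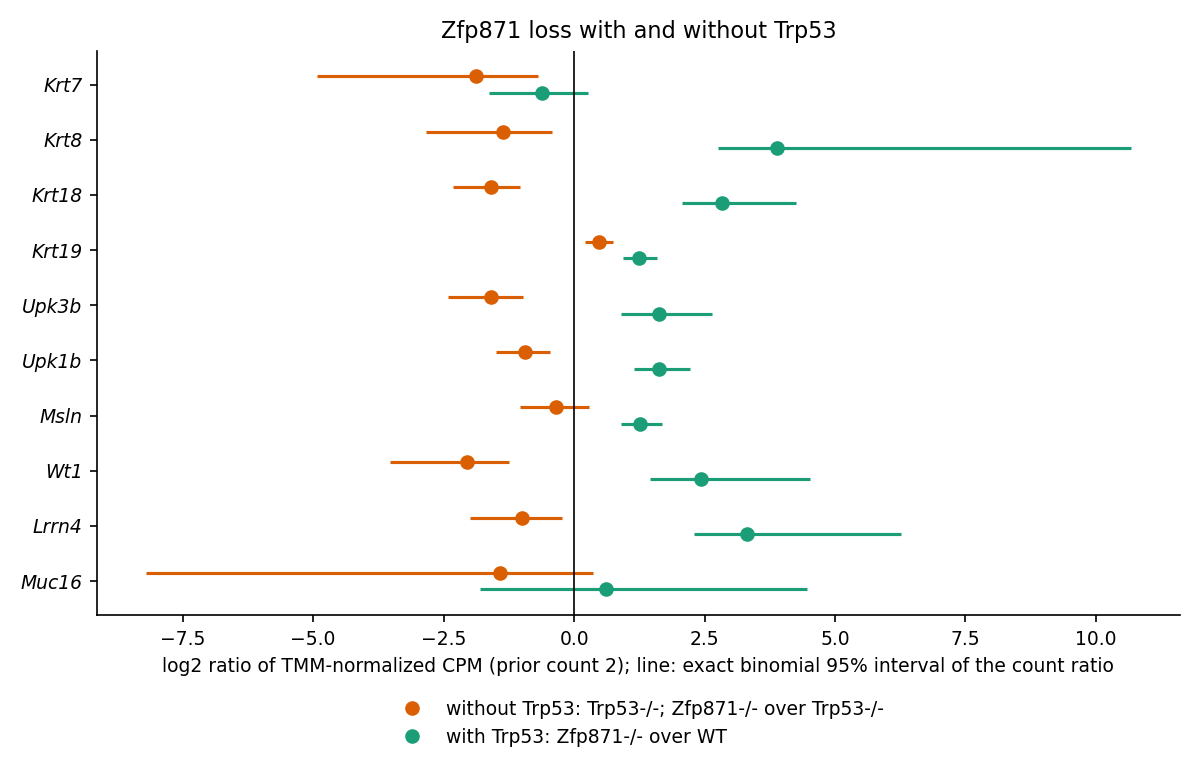
Log2 ratio of Zfp871 loss for each of the 10 genes without Trp53 (double null over Trp53-/-, upper points) and with Trp53 (Zfp871-/- over WT, lower points); lines are exact binomial 95% intervals of the ratio of counts. The intervals lie below 0 without Trp53 and above 0 with it for Krt8, Krt18, Upk3b, Upk1b, Wt1 and Lrrn4, and Krt19 alone is above 0 in both.

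Krt8, Krt18, Upk3b, Wt1 and Lrrn4 were 2-fold or more lower with Zfp871 loss without Trp53 and 2-fold or more higher with Trp53. These are 5 of the 10 genes, against 29 of the 13306 genes that passed the filter (0.218%), the 5 included, and 1.25% of the genes with summed counts in the range of the set. This criterion was chosen after the values had been seen. The difference between both ratios was negative for all 10 genes and at or below -1 for 9 of them, with Krt19 the exception at -0.77. The background for a difference at or below -1 was 5.04% of the genes that passed the filter and 15.8% of those in the range of counts. The differences ran to -5.25 for Krt8, -4.495 for Wt1, -4.41 for Krt18 and -4.31 for Lrrn4. They were not tested, because a single library per genotype leaves no spread for such a test.

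Read by Trp53 loss, the same 4 libraries give the same difference between backgrounds for each gene, while the ratios themselves can differ. In the double null over Zfp871-/-, 9 of the 10 genes were lower by 2-fold or more (background 6.33%, and 14.7% in the range of counts), all but Krt19, and 0 were higher by as much (background 5.51%). In Trp53-/- over WT, 5 were higher by 2-fold or more (background 8.9%, and 17.0% in the range of counts), namely Krt8, Krt18, Upk3b, Wt1 and Lrrn4, and 0 were lower by as much (background 8.88%). Msln, with a ratio of -0.99, lay just short of that threshold. The double null over WT shares a library with each of these pairs. There 4 genes were higher by 2-fold or more, Krt8, Krt18, Krt19 and Lrrn4 (background 8.79%, and 16.3% in the range of counts). Lower by as much were 2 of the 10, Krt7 and Msln (background 9.22%, and 17.9% in the range of counts). The count of lower genes is thus near the share in the range of counts. The log2 ratio of Krt7 in that pair was -2.76 (-5.83 to -1.77), and that of Msln -1.34 (-1.998 to -0.81).

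The additive model of Trp53 and Zfp871 loss called none of the 8 genes it tested. It takes libraries of different genotype as replicates, with 1 residual degree of freedom, so a difference that turns round between backgrounds enters as error. For Zfp871 loss edgeR's quasi-likelihood test, adjusted by Benjamini-Hochberg, called 0 of 13306 genes in either direction (0.0%), against 510 genes with an unadjusted p under 0.05, while DESeq2's Wald test called 3 genes upward and 5 downward and limma-voom 0. For Trp53 loss the edgeR test called 5.01% of genes upward and 4.31% downward. Krt18 had an estimate of 0.45 (SE 1.27) for each loss in that edgeR fit, with Benjamini-Hochberg adjusted p of 0.843 for Trp53 and 0.96 for Zfp871. Krt19 had the lowest p of the set for Zfp871 loss, with an edgeR estimate of 0.86 (SE 0.272), p of 0.0307 and adjusted p of 0.874, where 3.83% of all genes had an unadjusted p under 0.05. Msln had the lowest for Trp53 loss, with an estimate of -1.86 (SE 0.503), p of 0.0183 and adjusted p of 0.096 in the edgeR test, where 4125 of the 13306 genes had an unadjusted p under 0.05. Msln passed in DESeq2's Wald test (adjusted p 0.0334) and in the edgeR test without a filter on low counts (adjusted p 0.027), and did not pass in limma-voom (adjusted p 0.0716).

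Other genes known from mesothelium went in both directions. Of 21 such genes 14 passed the filter, and of these 4 were higher and 4 lower by 2-fold or more in Zfp871-/- over WT (background 3.52% and 3.97%), and 0 in either direction in the double null over Trp53-/- (background 0.819% and 1.01%). The median log2 ratio of the 14 was -0.27 without Trp53 and -0.01 with it. Bnc1, a zinc finger gene of mesothelium and other epithelia, had 37 counts in the double null, 36 in Trp53-/-, 91 in Zfp871-/- and 10 in WT. Aldh1a2, which makes retinoic acid in the coelomic lining, had 27, 31, 74 and 14 counts in these libraries. Both were lowest in WT and highest in Zfp871-/-, but without Trp53 their ratios of Zfp871 loss were -0.05 and -0.27. Sema3d and Stmn2 went the other way, with 113, 152, 111 and 905 counts and 80, 52, 125 and 337 counts in the double null, Trp53-/-, Zfp871-/- and WT. Gata4 and Gpm6a, singled out after their values were seen, were lowest in the double null and highest in Trp53-/-. They had 2, 47, 11 and 13 counts and 3, 31, 12 and 8 counts in these libraries. Neither passed the filter, so the counts of 2-fold differences above leave them out, whereas those of the set include all 10 genes. In the double null over Trp53-/- their log2 ratios were -3.62 (-7.73 to -2.71) and -2.75 (-5.81 to -1.78). Other genes of the list that had counts but failed the filter had log2 ratios short of the 2-fold threshold in that pair. The calcium-binding protein gene Calb2, a marker of mature mesothelium, had 0 counts in every library, and Tcf21 had 1 count, in Zfp871-/-. In the edgeR quasi-likelihood test 1 of the 14 genes, Nkain4, fell with Trp53 loss (Benjamini-Hochberg adjusted p 0.0459, with 4.31% of all genes called downward). For Zfp871 loss 0 were called, as that test called 0 of 13306 genes, so this tells nothing particular to these genes.

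Most genes of the simple epithelial list had few counts. The cell adhesion gene Cdh1 (E-cadherin) had 11 counts in the double null, 15 in Trp53-/-, 1 in Zfp871-/- and 5 in WT, and Epcam had 2, 2, 2 and 0. The claudins Cldn4 and Cldn6 had 0 counts in every library, and the splicing factor Esrp1 and the transcription factor Grhl2 had 0 to 3. Of 25 simple epithelial genes 5 passed the filter, and 0 of them were called for either loss in the edgeR test. The shares of all genes called were 5.01% upward and 4.31% downward for Trp53 loss and 0.0% for Zfp871 loss, so this count is near them. Spint1, an inhibitor of membrane serine proteases, had 44 counts in the double null, 135 in Trp53-/-, 9 in Zfp871-/- and 2 in WT. Krt20, a keratin of gut and urothelium, had 10, 10, 76 and 25 counts in these libraries and was highest in Zfp871-/-, as Msln was. Esrp2, a splicing factor, had 43, 33, 56 and 41 counts in these libraries, and Spint2, a further protease inhibitor, 54, 41, 32 and 42. Of 11 genes of stratified epithelium 3 passed the filter, with counts in the range of those of the uroplakin genes or above. Krt10, a keratin of differentiated epidermis, had 53 counts in the double null, 49 in Trp53-/-, 25 in Zfp871-/- and 26 in WT, and Krt80 had 51, 35, 60 and 68. The basal keratins did not pass, with 0, 10, 0 and 8 counts for Krt5 and 2, 19, 8 and 14 for Krt14 in these libraries. The epidermal gene Sfn, at 98, 113, 192 and 482 counts, fell with Trp53 loss in the edgeR test (Benjamini-Hochberg adjusted p 0.0465).

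Genes that anchor keratin filaments had ratios of Zfp871 loss centred near 0. Of 14 genes of desmosomes and related linkers 11 passed the filter, with a median log2 ratio of -0.04 without Trp53 and 0.00 with it. The edgeR test called 3 of the 11 lower with Trp53 loss, Itgb4 (an integrin of hemidesmosomes), Ppl (periplakin) and Dsc2 (a desmosomal cadherin), with Benjamini-Hochberg adjusted p of 0.0233, 0.0253 and 0.0488, where 4.31% of all genes were called downward. Itgb4 had 22 counts in the double null, 18 in Trp53-/-, 136 in Zfp871-/- and 210 in WT. Ppl had 17, 29, 90 and 173 counts in these libraries, Dsc2 had 15, 8, 53 and 32, and Pkp1 had 98, 118, 135 and 454. Other linkers, singled out after their values were seen, were abundant: Jup (plakoglobin) had 1687 counts in the double null, 1585 in Trp53-/-, 2653 in Zfp871-/- and 1817 in WT, and Pkp2 (a plakophilin) had 1159, 736, 717 and 314. Of 6 factors known to repress epithelial genes the edgeR test called 1. Zeb1 fell with Trp53 loss (edgeR Benjamini-Hochberg adjusted p 0.0455), with 1590 counts in the double null, 1266 in Trp53-/-, 1976 in Zfp871-/- and 2279 in WT. Zeb2 and Twist2 were not called. They had 4133, 4300, 3297 and 2399 counts and 788, 1104, 472 and 316 counts in the double null, Trp53-/-, Zfp871-/- and WT. Twist2 was higher in the Trp53-null libraries. Zeb2 was lowest in WT, and its log2 ratio in the double null over Zfp871-/- was 0.02 (-0.04 to 0.09), within counting error. Twist1 had 961, 972, 852 and 1068 counts. The median ratio of Zfp871 loss over the 6 was -0.08 without Trp53 and -0.10 with it.

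Most markers of hepatoblasts and trophoblast, which also carry Krt8 and Krt18, were scarce. Of 7 hepatoblast genes 0 passed the filter, and Afp, Alb and Ttr had at most 6 counts in a library. Of 9 trophoblast genes 2 passed, and Cdx2, Hand1 and Tpbpa had 0 counts in every library. Those that passed were Gata3, which other cells also express, with 90 counts in the double null, 99 in Trp53-/-, 100 in Zfp871-/- and 71 in WT, and Eomes, with 40, 32, 12 and 2 counts in these libraries. The endothelial genes Tie1 and Cldn5 had 0 counts in every library, while Kdr had 393 counts in the double null, 341 in Trp53-/-, 383 in Zfp871-/- and 165 in WT, Tek 19, 9, 53 and 52, and Vwf 59, 66, 25 and 18. Of the 13 fibroblast markers, Dcn, the matrix proteoglycan decorin, had 2994 counts in the double null, 5502 in Trp53-/-, 3626 in Zfp871-/- and 1504 in WT. Thy1 had 22282, 24868, 16380 and 6549 counts in these libraries, and S100a4 had 105, 135, 309 and 199. Lum, the related proteoglycan lumican, had 217, 392, 597 and 2192 counts. For Trp53 loss the edgeR test called 2 of the 13 markers lower, Col3a1 and Lum (Benjamini-Hochberg adjusted p 0.0427 and 0.0258), and 0 higher. Of all genes it called 4.31% downward and 5.01% upward.

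**Figure D4:**
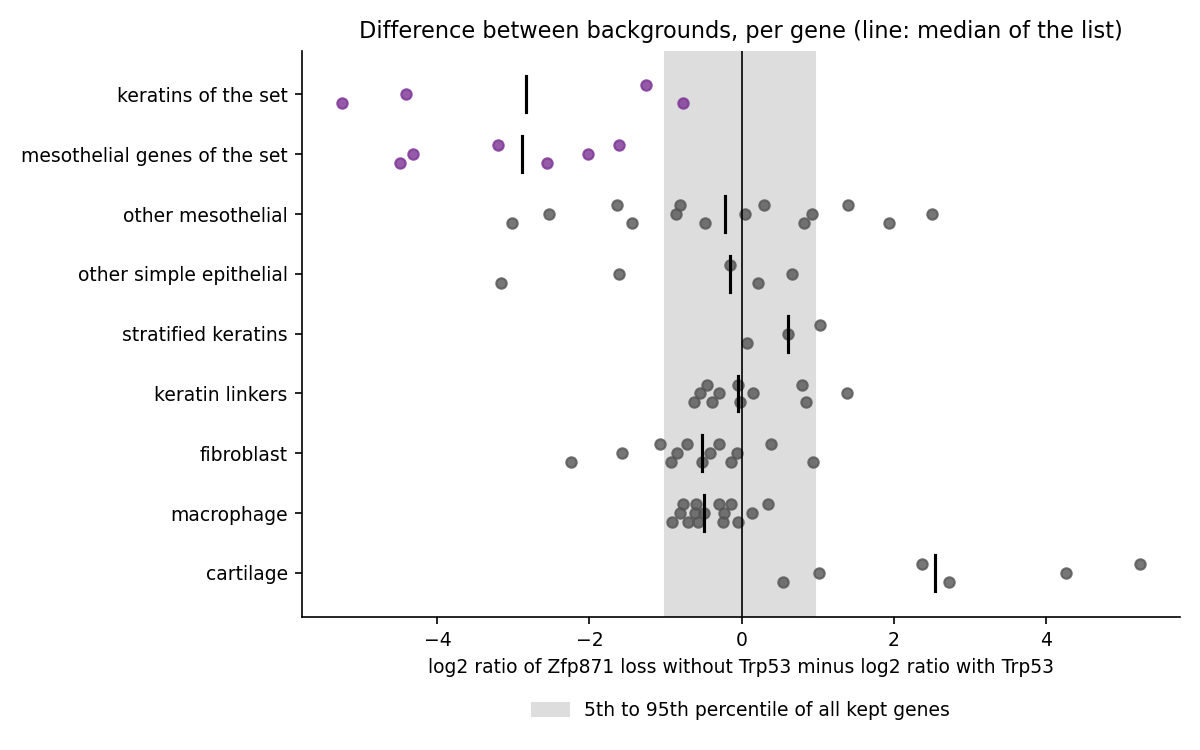
Difference between the log2 ratio of Zfp871 loss without Trp53 and that with it (horizontal axis, log2 units) for the 4 keratins and 6 mesothelial genes of the set and for the genes of 7 other lists that passed the filter; vertical lines are list medians and grey marks the 5th to 95th percentile of all genes that passed the filter. Grey runs from -1.01 to 0.97; 9 of the 10 genes of the set lie below it, other mesothelial genes lie on both sides, and the cartilage genes have a median of 2.55.

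Likeness over the 4 libraries was measured as the root mean square difference of mean-centred log2 levels, among 12319 genes with at least 50 counts in some library. Within the set, Krt8 and Lrrn4 (0.26), Krt18 and Lrrn4 (0.27), Krt18 and Wt1 (0.29), and Upk3b and Upk1b (0.33) were the closest pairs, and Krt7 and Krt8 (1.87) the farthest apart. Outside the set the nearest to Krt18 were Tnfrsf26 (0.42), Il33 (0.45), Car8 (0.51), Vdr (0.54) and Gm45714 (0.54). The nearest to Upk3b were Angpt2 (0.21), Dcn (0.31), Col24a1 (0.31), Tnfrsf26 (0.32) and Apba1 (0.32). Angpt2, which encodes a ligand of the endothelial receptor Tie2, had 170 counts in the double null, 361 in Trp53-/-, 262 in Zfp871-/- and 112 in WT. The genes of the set were not held to that count minimum, which Krt7, Krt8, Wt1, Lrrn4 and Muc16 miss. Upk3b was nearer to Angpt2 than to any gene of the set. With 4 libraries many genes can share a course, so these distances are descriptions.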

How the data were processed

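RNA of 4 MEF libraries, 1 per genotype, was sequenced. The authors deposited raw counts per gene. The submitters' processing notes name fastp, STAR, featureCounts and mm10, and the sources used here do not give versions, annotation or strand setting, so antisense overlaps are uncertain. The deposited per-library values have no stated unit. The authors' values were taken to be FPKM because, for 9 of the 10 genes, they implied the exon length of GENCODE M21. For Msln they implied 2114 bases against 3064, so its FPKM was not used.

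Symbols and coordinates came from GENCODE M21 (GRCm38), which held 54495 of the 54532 IDs. Counts were scaled by TMM in edgeR 4.0.16 (R 4.3.3). Genes with a CPM of at least 1 in at least 2 libraries were tested (13306 genes). The threshold for a higher or lower gene was 2-fold. The additive edgeR quasi-likelihood test (Trp53 + Zfp871) was adjusted by Benjamini-Hochberg over all genes at 0.05 and was tested on simulated data. DESeq2 1.42.0 and limma 3.58.1 were alternatives. Intervals do not cover duplication of molecules by PCR.

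The genes and lists were chosen with earlier results of these data known. The naming rule took all 10 genes, from each other list up to 4 genes with the widest range among those with at least 50 counts in a library, the 5 nearest genes to Krt18 and Upk3b, and defining markers at 0. Macrophage, cartilage and smooth muscle lists are given only as sums. Afp, Alb, Ttr, Eomes, Cdh1, Epcam, Esrp1, Grhl2, Krt5, Krt14, Tcf21 and the other uroplakins were added to show markers that were scarce. Nkain4 and Col3a1 were added because they passed the test, and Gata4, Gpm6a, Amh, Nr5a1, Lhx9, Sox9, Jup and Pkp2 after their values were seen.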

Additional observations from a re-analysis of the deposited data

Results flagged for a closer look

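The Zfp871 difference ran in opposite directions with and without Trp53 for 6 genes, with counting intervals that excluded an equal level on both sides. The log2 ratio without Trp53 minus that with Trp53 was -5.25 for Krt8, -4.41 for Krt18, -3.21 for Upk3b, -2.56 for Upk1b, -4.495 for Wt1 and -4.31 for Lrrn4. The difference of the Trp53 ratios without and with Zfp871 has the same value for each gene, since the same 4 libraries enter. None of these differences was tested, as each genotype has 1 library.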

How the results depend on the processing

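None of the 50 pairwise log2 ratios of the 10 genes changed sign under DESeq2 size factors, total counts, or prior counts of 0.5 and 5, and all 200 values under these alternatives lay within the counting interval of the ratio. Total counts in place of TMM moved the median of all genes by 0.14 in the double null over Zfp871-/- and by under 0.1 in the other pairs. The number of genes at least 2-fold lower in Trp53-/- over WT was 0 with the settings used, 1 with a prior count of 0.5 and 2 at a 1.5-fold threshold. In Zfp871-/- over WT that number was 0 and became 1 at 1.5-fold. For Trp53 loss 0 genes of the set were called downward by the edgeR test, against 1, Msln, by DESeq2's Wald test and 1, Msln, without a filter on low counts. Over all genes the edgeR test called 667 upward and 574 downward for Trp53 loss, and 1113 and 1191 without the filter, where it also called 2 upward and 4 downward for Zfp871 loss. The other counts of genes at least 2-fold apart stayed within 1.5 times under all alternatives run. Where the counting interval also had to exclude an equal level, 6 genes instead of 7 were lower in the double null over Trp53-/- and 8 instead of 9 in the double null over Zfp871-/-, Muc16 being the gene lost. Leaving out the gene with under 50 summed counts, and the share of genes in the range of counts of the set, were chosen after seeing the data. Leaving out that gene gave 8 genes instead of 9 with a difference between backgrounds at or below -1, as did a prior count of 5. No paired analysis was possible because each genotype has 1 library and the labels carry no replicate numbers, and leaving out a library leaves the additive model without residual degrees of freedom. Depth limits the genes with 1 to 9 counts in a library, namely Krt7, Krt8, Krt18, Wt1, Lrrn4 and Muc16.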
